A study of Mus musculus with 4 samples.

Results

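AP-1 is a family of dimeric transcription factors built from Jun, Fos and ATF subunits, and immediate-early genes are genes whose transcription starts without new protein synthesis when a cell meets a growth factor, a cytokine or a stress. Described here are 10 such genes of the 32285 in the deposited tables: the Jun family (Jun, Junb, Jund), the Fos family (Fos, Fosb, Fosl2), Atf3, Egr1, and the small response genes Ier2 and Ier3. They were listed by name, with earlier results of these data known, and all 10 were found in the table. The level of each was read in every cell class of 4 droplet single-cell RNA libraries, in barcodes (droplets taken as cells) with at least 1000 genes and at most 10% mitochondrial UMIs. A UMI is a molecular tag that counts 1 captured RNA molecule, and a level is given as UMIs per 1000000 UMIs (CPM) of all cells of a class in a library.

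The libraries are 1 each of bone marrow and spleen from controls (CBM and CS) and from tumor-bearing animals (TBM and TS), all C57BL/6J mice aged 8 to 16 weeks. Tumor-bearing mice carried a transplanted tumor of PyMT-B6, a mammary tumor line from a mouse with the polyoma middle T oncogene on the same background, and controls carried none. All 4 came from tissue digested with Collagenase IV and DNase I, depleted of Lin+ cells, sorted on c-Kit and Sca-1 or, among CD45- cells, on CD31 and CD51, and pooled from the gates at equal ratios. Spleens were minced before digestion, while marrow was taken out of the bones by centrifugation. Handling therefore differed with tissue in every comparison of spleen and marrow, and its part was not tested. How many mice each pool held is not given in the labels. With 1 library per group there is no replicate and no test: each interval is an exact 95% interval that covers counting error only, and the spread between mice is unknown.

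The 4 libraries gave 16261 barcodes and 388321947 UMIs, with 3236 to 5188 barcodes and a median of 13738 to 26808 UMIs per barcode in a library, the 2 spleen libraries being the deeper ones. At most 9 barcodes were shared between any 2 libraries. Clusters made without these 10 genes were named by markers, and 2086 barcodes (12.8%) stayed unnamed beside a pair of clusters led by Scin and St8sia6. Stem and progenitor cells are called HSPC-like, with 809 and 1010 barcodes in CBM and TBM and 158 and 729 in CS and TS. All 12 HSPC markers had UMIs in the HSPC-like cells of each library, at 2187 and 1708 CPM summed in CBM and TBM and 1689 and 1343 CPM in CS and TS, so they were lower in spleen. In the same cells the 7 GMP markers, fixed for another class, summed to 1986 and 4571 CPM in the marrows and 3178 and 3374 CPM in the spleens, and the 10 early erythroid markers to 84.0 and 70.9 CPM and 154 and 198 CPM. The 12 basophil or mast cell markers summed to 167 and 301 CPM in the marrows and 262 and 343 CPM in the spleens. Spleen and marrow could be compared, at no fewer than 50 barcodes in both, in 5 named classes of control mice (HSPC-, monocyte-, basophil or mast cell-, megakaryocyte- and hemoglobin-rich erythroid-like) and in those plus the granulocyte-monocyte progenitor-like (GMP-like) class of tumor-bearing mice. In pooled and sorted material, a difference in level between classes does not say how many such cells a tissue holds.

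Jun subunits pair with each other or with Fos subunits and bind the TRE, while ATF partners shift binding toward the CRE, a motif that also takes CREB. Fos, Egr1 and Ier2 are textbook targets of SRF with its ternary complex partners, which sit at CArG boxes and are driven by ERK, and Jun and Atf3 are known targets of the JNK and stress pathways. Such RNAs are short-lived, so their level follows recent signalling. In the blood system Junb restrains myeloid growth, and Egr1 is tied to stem cell quiescence and to macrophage differentiation.

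The upstream 250 bases of 5 of the genes are shown because these genes parted from each other between the libraries below. They are RefSeq promoters on GRCm38.p6 (the mm10 assembly), read 5′ to 3′ on the strand of the gene and ending at the base before the RefSeq start; 8 of the 10 genes had an entry, and Egr1 and Ier2 had none. Capitals mark TGACG (part of a CRE) on either strand and, in Jun, TGACATCA.
Fos, chr12:85473640-85473889, plus strand: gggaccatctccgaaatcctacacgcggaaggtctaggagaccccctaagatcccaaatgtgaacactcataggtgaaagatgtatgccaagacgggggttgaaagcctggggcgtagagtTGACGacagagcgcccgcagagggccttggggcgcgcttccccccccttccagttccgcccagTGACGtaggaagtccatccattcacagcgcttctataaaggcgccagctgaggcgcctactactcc
Fosb, chr7:19310046-19310295, minus strand: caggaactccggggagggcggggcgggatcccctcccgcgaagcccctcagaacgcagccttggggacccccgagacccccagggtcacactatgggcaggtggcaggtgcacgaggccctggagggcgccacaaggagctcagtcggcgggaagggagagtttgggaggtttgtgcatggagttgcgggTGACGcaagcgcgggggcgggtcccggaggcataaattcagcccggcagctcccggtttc
Jun, chr4:95052223-95052472, minus strand: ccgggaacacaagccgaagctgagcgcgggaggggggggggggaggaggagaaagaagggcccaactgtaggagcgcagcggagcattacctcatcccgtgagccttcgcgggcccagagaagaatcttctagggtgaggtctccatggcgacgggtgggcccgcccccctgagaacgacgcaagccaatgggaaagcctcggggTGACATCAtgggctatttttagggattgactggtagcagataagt
Junb, chr8:84978749-84978998, minus strand: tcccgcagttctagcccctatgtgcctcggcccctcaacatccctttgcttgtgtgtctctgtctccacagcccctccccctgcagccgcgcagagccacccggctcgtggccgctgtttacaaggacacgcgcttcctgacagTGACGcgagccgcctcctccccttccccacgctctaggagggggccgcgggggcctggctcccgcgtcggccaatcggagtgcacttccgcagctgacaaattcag
Atf3, chr1:191183334-191183583, minus strand: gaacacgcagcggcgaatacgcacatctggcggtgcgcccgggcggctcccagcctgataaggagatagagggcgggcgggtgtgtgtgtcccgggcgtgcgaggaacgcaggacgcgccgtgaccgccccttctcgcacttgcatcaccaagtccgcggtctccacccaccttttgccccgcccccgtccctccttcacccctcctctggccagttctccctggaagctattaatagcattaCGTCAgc
TGACG was in 4 of the 8 promoters (Fos, Fosb, Junb and Atf3) and in 17.8% of 32851 promoters of the same length. In Fos it stood at bases -129 to -125 and -66 to -62 from the start, in Fosb at -60 to -56, in Junb at -106 to -102 and in Atf3, on the other strand, at -7 to -3. The sequence TGACATCA stood at -45 to -38 of Jun alone among the 8, and in 2.93% of all promoters. For Fos and Jun the RefSeq start is also the gene's first base in the GENCODE annotation given below. For Fosb it lies 6 bases inside the annotated gene, for Junb the annotated gene begins 30 bases further downstream, and for Atf3 the start lies 34706 bases inside the gene, 7 bases from the first base of a shorter annotated transcript. The full CRE TGACGTCA (1.55% of all promoters), the TRE TGANTCA (6.75%) and the CArG box (1.47%) were in none of the 8 windows, on either strand. Any full CRE also holds TGACG. These are matches of letters in a short window, not mapped sites.

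In the annotation (GENCODE vM21, GRCm38), Jun (chr4:95049034-95052222), Jund (chr8:70698949-70700616) and Ier2 (chr8:84661331-84662852) have 1 exon. Junb (chr8:84974484-84978718) overlaps Prdx2 on the opposite strand, Jun overlaps Junos, Jund overlaps Gm11175 and Atf3 (chr1:191170296-191218039) overlaps Gm24748. Cell Ranger, run on its default settings, counts reads on the sense strand of a gene. Fos (chr12:85473890-85477273), Fosb (chr7:19302696-19310051), Fosl2 (chr5:32135801-32157842), Ier3 (chr17:35821684-35822923) and Egr1 on chromosome 18 overlap no other gene there.

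The first question was whether the 10 genes were higher in spleen than in marrow in the HSPC-like cells of control mice. They were for 9 of the 10 by their counting intervals, with a median log2 ratio of CS over CBM of 0.92 (median of the lower limits 0.83, of the upper limits 1.01), beside a median of 0.04 over the 6287 other genes with a mean of at least 20 CPM, of which 19.5% had an interval above 0. Counting intervals narrow as UMIs rise, and the shares of other genes, here and below, were not matched to the members for UMIs. The genes at least 2-fold higher were 4: Jun, Fosb, Atf3 and Egr1. Of the 9 members at that mean level (all but Atf3) 3 were at least 2-fold higher, and of the 6287 genes 0.748% were. In these cells the sums of GMP, early erythroid and basophil or mast cell markers were higher in CS than in CBM. So were those of dendritic cell (156 against 114 CPM) and macrophage markers (84.9 against 46.2 CPM), while megakaryocyte markers were lower (78.8 against 118 CPM). The part of these marker genes was not tested. In tumor-bearing mice the median of TS over TBM was 0.53 (0.46 to 0.63), beside 0.03 over all genes; 8 intervals lay above 0, as for 29.9% of all genes, and 1, that of Fosb, below. Only Jun and Egr1 were at least 2-fold higher there, among 9 members at the level, against 0.377% of 6099 genes.

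**Figure D1:**
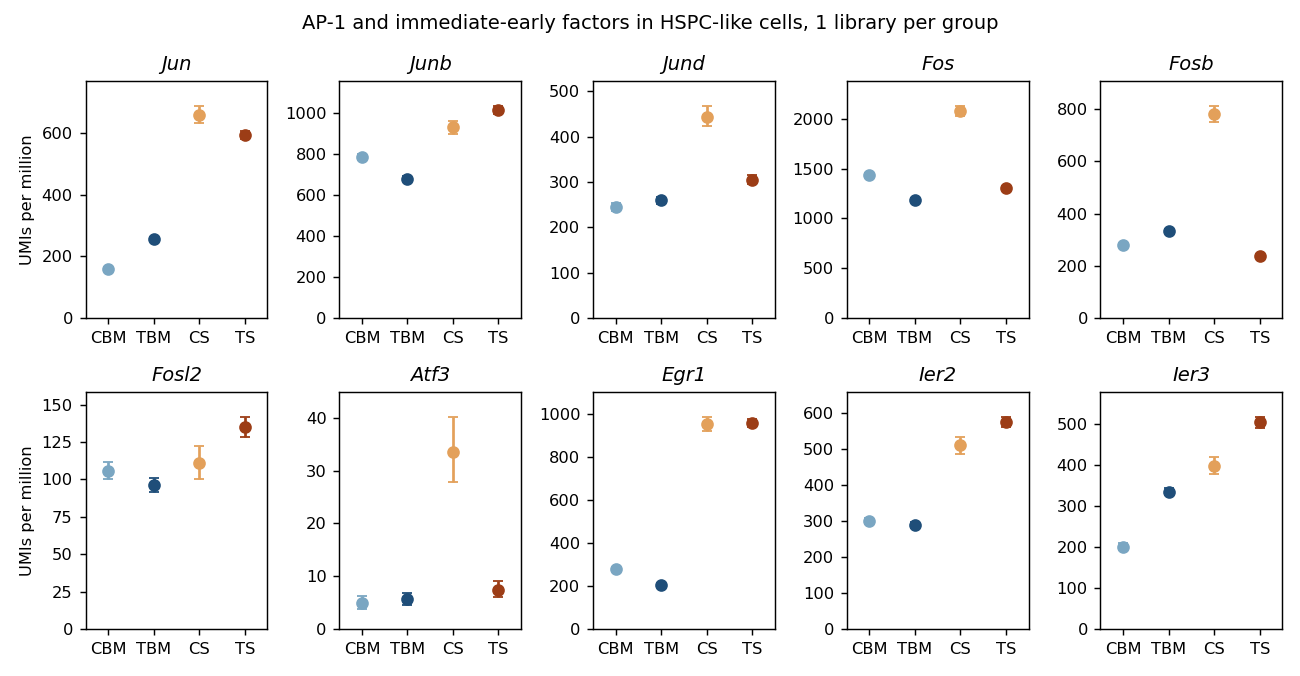
Level of each gene in HSPC-like cells of CBM, TBM, CS and TS (vertical axis, CPM from 0, with its own range per gene; bars, exact 95% counting intervals; 1 library per group). Egr1 stood at 951 and 957 CPM in CS and TS and under 281 in both marrow libraries, while Fosb was high in CS alone, at 780 CPM.

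Jun, the founding AP-1 subunit, stood at 159 and 256 CPM in CBM and TBM and 659 and 594 CPM in CS and TS. Both spleen libraries were above both marrow libraries, by 4.15-fold in control mice (log2 2.05, 1.97 to 2.14) and 2.32-fold in tumor-bearing mice (log2 1.21, 1.16 to 1.26). The smaller ratio in the tumor-bearing pair went with a TBM level 1.61-fold that of CBM. Junb, a subunit that can restrain Jun, stood at 786, 680, 930 and 1013 CPM in the same order. Its libraries kept the order of Jun by tissue, with narrow ratios of 1.18-fold (CS over CBM) and 1.49-fold (TS over TBM). Jund, the subunit with the steadiest expression in most tissues, stood at 245 and 260 CPM in CBM and TBM and 444 and 305 CPM in CS and TS. Its CS level was the one that stood apart, 1.81-fold above CBM and, with TS over CS at log2 -0.54 (-0.63 to -0.46), well above TS.

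Fos, the partner of Jun in classical AP-1, stood at 1433 and 1189 CPM in CBM and TBM and 2075 and 1304 CPM in CS and TS. The 4 intervals did not overlap, with CS highest, then CBM, TS and TBM. Fosb, a Fos relative whose stable splice form builds up on repeated stimulation, stood at 280 and 334 CPM in CBM and TBM and 780 and 238 CPM in CS and TS. The CS level was 2.79-fold that of CBM (log2 1.48, 1.41 to 1.55), but the TS level was the lowest of the 4, with TS over TBM at log2 -0.49 (-0.55 to -0.42). Fosl2, a Fos relative that lacks a strong activation domain, stood at 106 and 96.4 CPM in CBM and TBM and 111 and 135 CPM in CS and TS. Its CS over CBM ratio could not be told from 0 at this depth (log2 0.07, -0.10 to 0.23), and TS over TBM was 0.49 (0.39 to 0.58).

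Atf3, a stress-induced ATF subunit, was rare, with 64 and 101 UMIs in the control and tumor-bearing marrow (4.95 and 5.67 CPM) and 121 and 89 UMIs in the respective spleens (33.6 and 7.42 CPM). The CS level was 6.78-fold that of CBM (log2 2.76, 2.31 to 3.22), and TS over TBM spanned 0 (log2 0.39, -0.04 to 0.81). In CS the UMIs came from 30 of 158 barcodes, and the 5 highest held 47.9% of them, so the level rests on few cells. Egr1, a zinc finger factor downstream of ERK, stood at 280 and 205 CPM in CBM and TBM and 951 and 957 CPM in CS and TS. The spleen libraries were alike (TS over CS log2 0.01, -0.05 to 0.06) and were 3.40-fold above marrow in control mice and 4.67-fold above it in tumor-bearing mice. In CS the 5 barcodes with most Egr1 UMIs held 10.1% of them, so this level was spread over the cells.

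Ier2, a short-lived nuclear response protein, stood at 299 and 289 CPM in CBM and TBM and 509 and 574 CPM in CS and TS, 1.70-fold and 1.99-fold higher in spleen. Ier3, a response gene that modulates survival and NF-κB and ERK signalling, stood at 201 and 335 CPM in CBM and TBM and 398 and 505 CPM in CS and TS. It had a ratio near 2 in control mice (log2 0.99, 0.89 to 1.08) and a smaller one, 0.59 (0.54 to 0.64), in tumor-bearing mice. For Ier3 both steps were visible, since TBM also lay above CBM by log2 0.74 (0.67 to 0.80).

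Between the spleens, TS over CS in HSPC-like cells had a median log2 ratio of -0.07 (-0.13 to -0.01) over members of either sign. Fosb (log2 -1.71, -1.79 to -1.64), Atf3 (-2.18, -2.59 to -1.77), Fos (-0.67, -0.71 to -0.63), Jund and Jun (-0.15, -0.22 to -0.08) were lower in TS, and Junb, Fosl2, Ier2 and Ier3 were higher, by at most 0.34. Of all genes 20% had an interval below 0 and 23.2% above. The sign of that median turned under 6 of 15 other ways of making it, among which a limit of 10 UMIs per member left out none. No member was 2-fold higher in TS than in CS (0.243% of 6177 genes were). Between the marrows, TBM over CBM had a median of 0.02 (-0.17 to 0.08), with 4 genes above (Jun, Jund, Fosb, Ier3) and 4 below (Junb, Fos, Fosl2, Egr1), none 2-fold higher against 0.677% of 6203 genes. Of those genes 29.7% had an interval above 0 and 26.6% below, so neither count of 4 is far from the background. The 4 lower calls did not hold in cluster 0, as given below, and the median, too, changed with the cells taken: it was 0.28 in HSPC-like cluster 0 alone and 0.40 in cluster 14 alone.

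HSPC-like cells fell into 3 clusters, and the libraries drew on them unequally. Cluster 0 held 680 of the CBM, 643 of the TBM and 93 of the CS barcodes, but 51 of those in TS. Cluster 8, with Socs3, Dusp2 and Cxcl2 among its top genes, held 470 of the TS barcodes, 215 of those in TBM, 37 in CS and 16 in CBM. Cluster 14, with the mitotic gene Pimreg among its top genes, held 113 and 152 barcodes in CBM and TBM and 28 and 208 in CS and TS. Levels were therefore also read within each cluster.

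Summed over the 10 genes, the spleen level exceeded the marrow level in all 3 clusters. In cluster 0 the sum was 4264 and 5242 CPM in CBM and TBM and 7791 and 7110 CPM in CS and TS. In cluster 8 it was 1703 and 1824 CPM in CBM and TBM, against 5847 and 5949 CPM in CS and TS. In cluster 14 it was 2634, 3095, 6388 and 5016 CPM. Both marrow libraries were lowest in cluster 8, and its median TS over TBM ratio (log2 1.49, with all 10 intervals above 0, as for 24.3% of the 5929 other genes at the level there, whose median was 0.03) was larger than that of cluster 0 (0.44) or of cluster 14 (0.60). Both marrow sums of cluster 8 lay under those of free RNA, described below (2010 CPM in CBM and 2348 in TBM). In TBM all genes of cluster 8 but Fos and Atf3 lay under free RNA, Egr1 at 41.0 CPM against 186. The part of free RNA in these ratios was not tested.

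Fosb and Egr1 parted between the spleens within each cluster. Fosb was lower in TS than in CS in cluster 0 (345 against 825 CPM, log2 -1.26, upper limit -1.02), in cluster 8 (242 against 710 CPM, log2 -1.55, -1.68 to -1.42) and in cluster 14 (222 against 772 CPM, log2 -1.80, -1.93 to -1.66). Egr1 in the same cells was higher in TS in cluster 0 (1483 against 1176 CPM, log2 0.33, 0.21 to 0.46) and in cluster 8 (946 against 650 CPM, log2 0.54, 0.42 to 0.66), and in cluster 14 its interval spanned 0 (919 against 864 CPM, log2 0.09, -0.02 to 0.20). The sign of the tumor-bearing tissue comparison turned with the cluster for 3 genes. For Fosb TS over TBM was -0.51 (-0.75 to -0.28) in cluster 0 and -0.48 (-0.60 to -0.36) in cluster 14, but 0.90 (0.77 to 1.03) in cluster 8. Fos (-0.31, -0.43 to -0.20) and Fosl2 (-0.45, -0.90 to -0.03), both above 0 over the whole class and in clusters 8 and 14, were below 0 in cluster 0, which held 51 of the TS barcodes. Between the marrows Jun was higher in TBM in cluster 0 (log2 0.92, 0.83 to 1.01) and in cluster 14 (0.99, 0.82 to 1.17), while the intervals of Egr1 spanned 0 (0.05, -0.03 to 0.12, and 0.03, -0.13 to 0.19). Of the other 3 genes that were lower in TBM over the whole class, Junb was higher in TBM in cluster 0 (0.14, 0.09 to 0.18) and in cluster 14 (0.25, 0.15 to 0.35). Fos was higher in cluster 0 (0.11, 0.08 to 0.14) and lower in cluster 14 (-0.11, -0.18 to -0.05), and Fosl2 was higher in cluster 0 (0.25, 0.12 to 0.37) with an interval that spanned 0 in cluster 14.

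**Figure D2:**
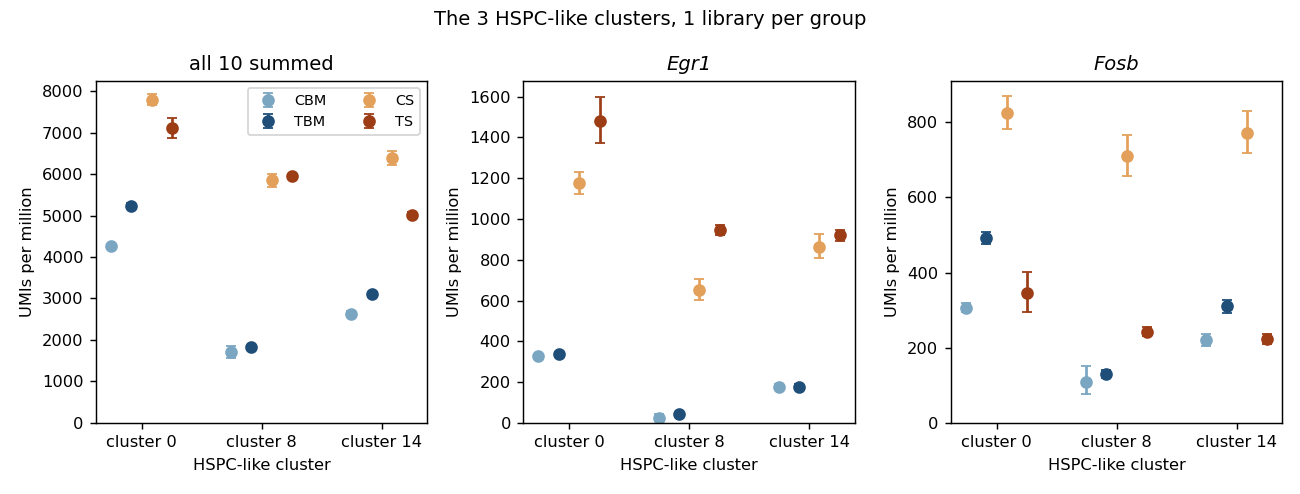
Levels in the 3 HSPC-like clusters (vertical axis, CPM from 0; bars, exact 95% counting intervals; 1 library per group). Spleen lies above marrow for the sum and for Egr1 in each cluster, and Fosb is highest in CS in each, at 825, 710 and 772 CPM.

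The second question was whether this difference between tissues was shared by all classes or set by class. In control mice it was broad: of 50 pairs of a gene and a class, 43 had an interval above 0 and 2 below, and 21 were at least 2-fold higher. Of these pairs 44 were at a mean of 20 CPM or more, and of those 40 had an interval above 0, 2 below, and 16 were at least 2-fold higher. Over 28376 pairs of another gene at that level and the same classes, the shares were 15.6%, 12.1% and 0.655%. Part of the 50 pairs lay under free RNA, described below, in both CBM and CS. These were 9 genes in the hemoglobin-rich erythroid-like class, 5 in the monocyte-like, 3 in the megakaryocyte-like and 1 in the basophil or mast cell-like class. The sum in free RNA was itself higher in CS (2915 CPM) than in CBM (2010 CPM). Of the 10 genes 6 (Jun, Junb, Jund, Fosb, Egr1 and Ier2) were higher in CS in all 5 classes. Fos was higher in 4 classes and lower in the hemoglobin-rich erythroid-like class (164 CPM in CBM, 118 in CS, log2 -0.48, -0.75 to -0.21). Ier3 was higher in 4 as well, with the erythroid interval spanning 0. Fosl2 was the gene that did not follow, with 2 classes above, 1 below (basophil or mast cell-like, log2 -0.21, -0.41 to -0.01) and a median over classes of 0.07. Atf3 was above in 3 classes, and in the other 2, whose ratios count among the 21, it had 2 to 5 UMIs in a library.

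In tumor-bearing mice, of 58 pairs with a ratio, 38 had an interval above 0, 6 below, and 11 were at least 2-fold higher. All of these were among the 53 pairs at 20 CPM or more, beside 24.8%, 13.5% and 1.13% of 33665 pairs of other genes. With free RNA subtracted, as described below, the pairs at least 2-fold higher became 19 of 57, and 21 of 47 in control mice. Under free RNA in both TBM and TS were 10 genes in the hemoglobin-rich erythroid-like class, 8 in the GMP-like and 6 in the monocyte-like class. In the megakaryocyte-like and the basophil or mast cell-like class it was Atf3. Junb and Egr1 were higher in TS in all 6 classes. Jun was higher in 5 and, in the erythroid class, not distinguishable at this depth (71.0 CPM in TBM and TS, log2 0.00, -0.42 to 0.41). Jund was higher in 3 classes (HSPC-, GMP- and megakaryocyte-like), by at most 0.44. Fosb was divided, above in 3 classes (GMP-, monocyte- and hemoglobin-rich erythroid-like) and below in 3 (HSPC-, basophil or mast cell- and megakaryocyte-like). Of these 3, the HSPC-like sign turned in cluster 8, as given above, and the basophil or mast cell-like interval spanned 0 within the cluster that both libraries shared. No Atf3 ratio had an interval off 0 in this pair of libraries, and in 2 classes it had at most 3 UMIs in both and no ratio was taken.

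**Figure D3:**
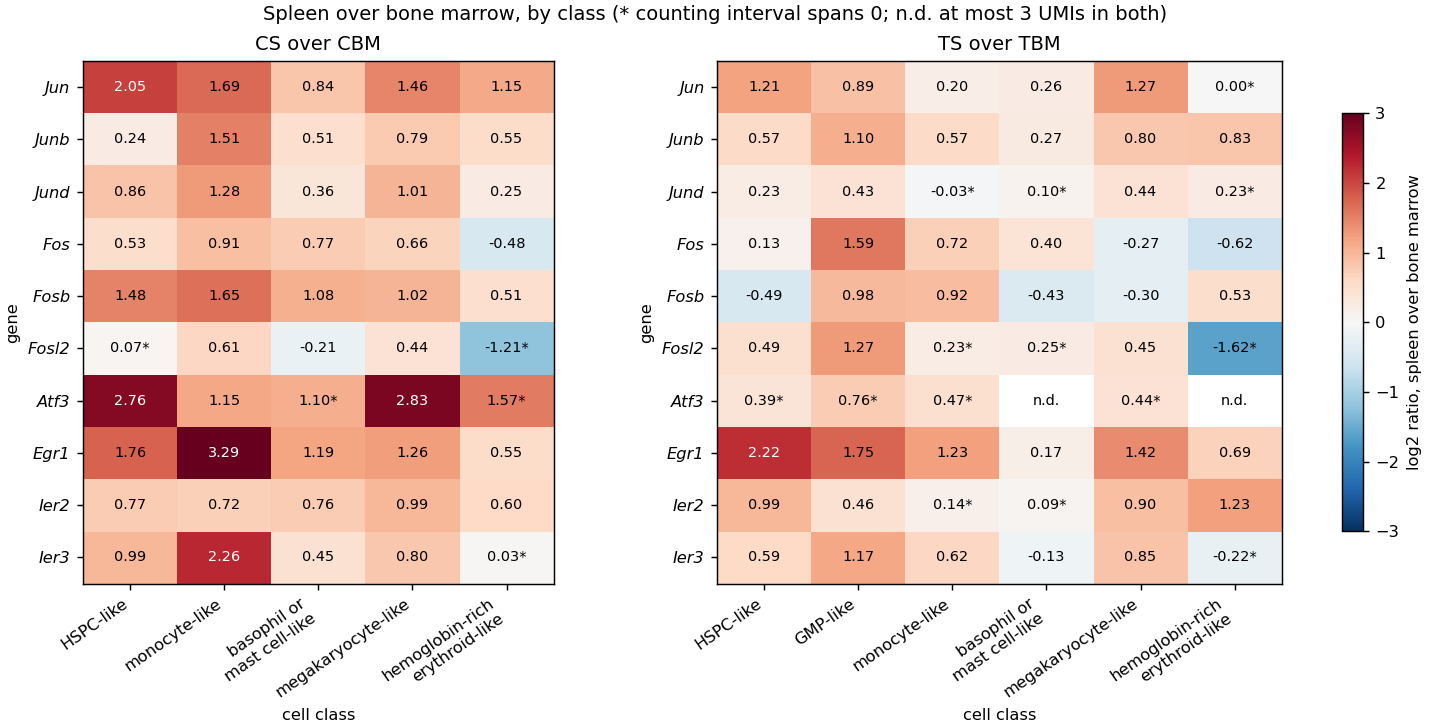
Log2 ratio of each gene (rows) in each named class (columns) for CS over CBM (left) and TS over TBM (right); red is higher in spleen, blue higher in marrow, and the number in a cell is the ratio. Egr1 and Junb are red in all columns of both panels, while Fosb turns blue in 3 of the 6 tumor-bearing columns.

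The size of the difference varied with class. In monocyte-like cells the median CS over CBM ratio was 1.39 (1.29 to 1.54), with all 10 intervals above 0 (18.9% of all genes). Egr1 went from 10.8 CPM in CBM and 17.8 in TBM to 106 in CS and 41.7 in TS, 9.77-fold in control mice (log2 3.29, 3.06 to 3.52), and Ier3 from 25.7 CPM in CBM to 123 in CS, 4.78-fold. Of 9 members at 20 CPM or more 6 were at least 2-fold higher, against 0.416% of 5768 genes. In tumor-bearing mice the median was 0.52 (0.22 to 0.74), with 6 intervals above 0 (22.1% of all genes) and Egr1 the one gene at least 2-fold higher (0.356% of 5623 genes). TS lay below CS for 8 genes there, as it did for 20.8% of all genes. With each cell given equal weight the median of TS over TBM was 0.14. Most spleen monocyte-like cells were of 1 cluster, 86 of 108 in CS and 53 of 56 in TS, and within it the medians were 1.72 and 1.03.

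GMP-like cells, with 46 barcodes in CS, were compared in tumor-bearing mice only. There the median was 1.04 (0.95 to 1.22), beside 0.14 over all genes, with 9 intervals above 0 (49.0% of all genes). Fos went from 294 CPM in TBM to 882 in TS (log2 1.59, 1.54 to 1.63), Egr1 from 15.6 to 52.6 (3.37-fold) and Fosl2 from 15.5 to 37.3 (2.41-fold). Of the 9 members at the level 5 were at least 2-fold higher (Junb, Fos, Fosl2, Egr1 and Ier3), against 0.296% of 5398 genes. When each cell was given equal weight the median fell to 0.42; within the deeper of the 2 GMP-like clusters, which held 288 of the 292 TS cells, it was 1.22.

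In megakaryocyte-like cells the CS over CBM median was 1.00 (0.91 to 1.10), all 10 intervals lay above 0 (12.8% of all genes), and 4 of 9 members at the level were at least 2-fold higher (0.309% of 6148 genes). Jun stood at 269 and 444 CPM in CBM and TBM and 738 and 1071 CPM in CS and TS, and Egr1 at 385, 519, 924 and 1393 CPM, each higher in every next library of that order. Fosb, at 347 and 502 CPM in CBM and TBM and 705 and 409 CPM in CS and TS, and Fos, at 888, 1084, 1404 and 902 CPM, instead peaked in CS. Jun and Egr1 were the 2 genes at least 2-fold higher in TS than in TBM (0.781% of 6143 genes), with a median over the 10 of 0.62 (0.53 to 0.91) and 7 intervals above 0 (12.2% of all genes). Both larger megakaryocyte-like clusters gave a Fosb and a Fos ratio below 0 for TS over TBM, as low as -0.33 and -0.29 in the first and -0.13 and -0.17 in the second.

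Basophil or mast cell-like cells had the highest summed levels of the classes compared. Egr1 stood at 1679 and 3142 CPM in CBM and TBM and 3821 and 3546 CPM in CS and TS, and Ier3 at 3349, 4517, 4577 and 4141 CPM. In control mice the median was 0.76 (0.57 to 0.84) and 8 intervals lay above 0 (13.4% of all genes); Fosb and Egr1 were at least 2-fold higher among the 9 members at the level, against 1.3% of 5834 genes. In tumor-bearing mice the median of 9 ratios was 0.17 (-0.03 to 0.28), 4 intervals lay above 0 (7.86% of all genes) and 2, of Fosb and Ier3, below, and no member was at least 2-fold higher (1.84% of 5829 genes). When the 10 genes were kept in the clustering this median became -0.26. The clusters that made up the class also differed, one holding 384 of the CBM and 291 of the CS cells while 248 and 175 of the TBM cells were in a pair of others, and within the first the control median was 0.60. Cluster 23 alone held at least 25 cells of both tumor-bearing libraries (36 in TS and 175 in TBM). There Ier3 was higher in TS (8012 against 6038 CPM, log2 0.41, 0.30 to 0.51), and Fosb stood at 1708 and 1603 CPM in TS and TBM (log2 0.09, -0.14 to 0.31), so neither was lower in TS.

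Hemoglobin-rich erythroid-like cells had the lowest levels, with sums of 543 to 704 CPM, below the sum in free RNA (2010 to 2915 CPM). Housekeeping genes were low in them too, as given below. In CS over CBM 6 intervals lay above 0 (12.3% of all genes) and 1 below, with a median of 0.53 (0.02 to 0.93) that fell to 0.05 when free RNA was subtracted and rose to 0.98 when cells were thinned to 2000 UMIs, and Jun, from 32.8 to 72.5 CPM, was the member at the level that was at least 2-fold higher (0.461% of 4339 genes). In TS over TBM the median of 9 ratios, 0.23 (-0.06 to 0.53), stood beside a median of all genes of 0.25, with 4 intervals above 0 (31.4% of all genes). The interval of Fos lay below 0 (104 CPM in TBM, 68.2 in TS, log2 -0.62). That median became 1.08 when free RNA was subtracted and -0.03 under median of ratios scaling. Of the members at the level Ier2 alone was at least 2-fold higher, against 3.61% of 4573 genes. In early erythroid-like cells, found mainly in spleen, 9 of the 10 genes were lower in TS than in CS by their intervals and Egr1 alone was higher (75.3 CPM in TS against 63.7 in CS, log2 0.24, 0.18 to 0.31). The median was -0.46 (-0.49 to -0.43) beside 0.01 over all genes, of which 33.5% had an interval below 0, and none of the 8 members at 20 CPM or more was at least 2-fold lower (0.622% of 5464 genes). Fosl2 and Atf3, both under that level, were. The early erythroid-like sums, 2019 CPM in CS and 1474 in TS, lay below those of free RNA (2915 and 2100 CPM), which was also lower in TS. Free RNA held 170 CPM of Egr1 in CS and 186 in TS, above the early erythroid-like level in both. The part of free RNA in these differences was not tested. Clusters made at a resolution of 0.6 divided early erythroid-like cells by library. A cluster with 719 CS barcodes held 189 of TS. Others with 1598 and 1087 of TS held 58 and 13 of CS. Levels within clusters of this class were not read. In T, NK or innate lymphoid-like cells, also of the spleen, 9 genes were lower in TS (median log2 -1.08, -1.22 to -0.92) and Ier3 was higher (298 CPM in TS against 160 in CS, log2 0.90, 0.70 to 1.09). All genes had a median of -0.04 there and 26.4% had an interval below 0, and 6 members were at least 2-fold lower against 6.58% of 6185 genes.

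**Figure D4:**
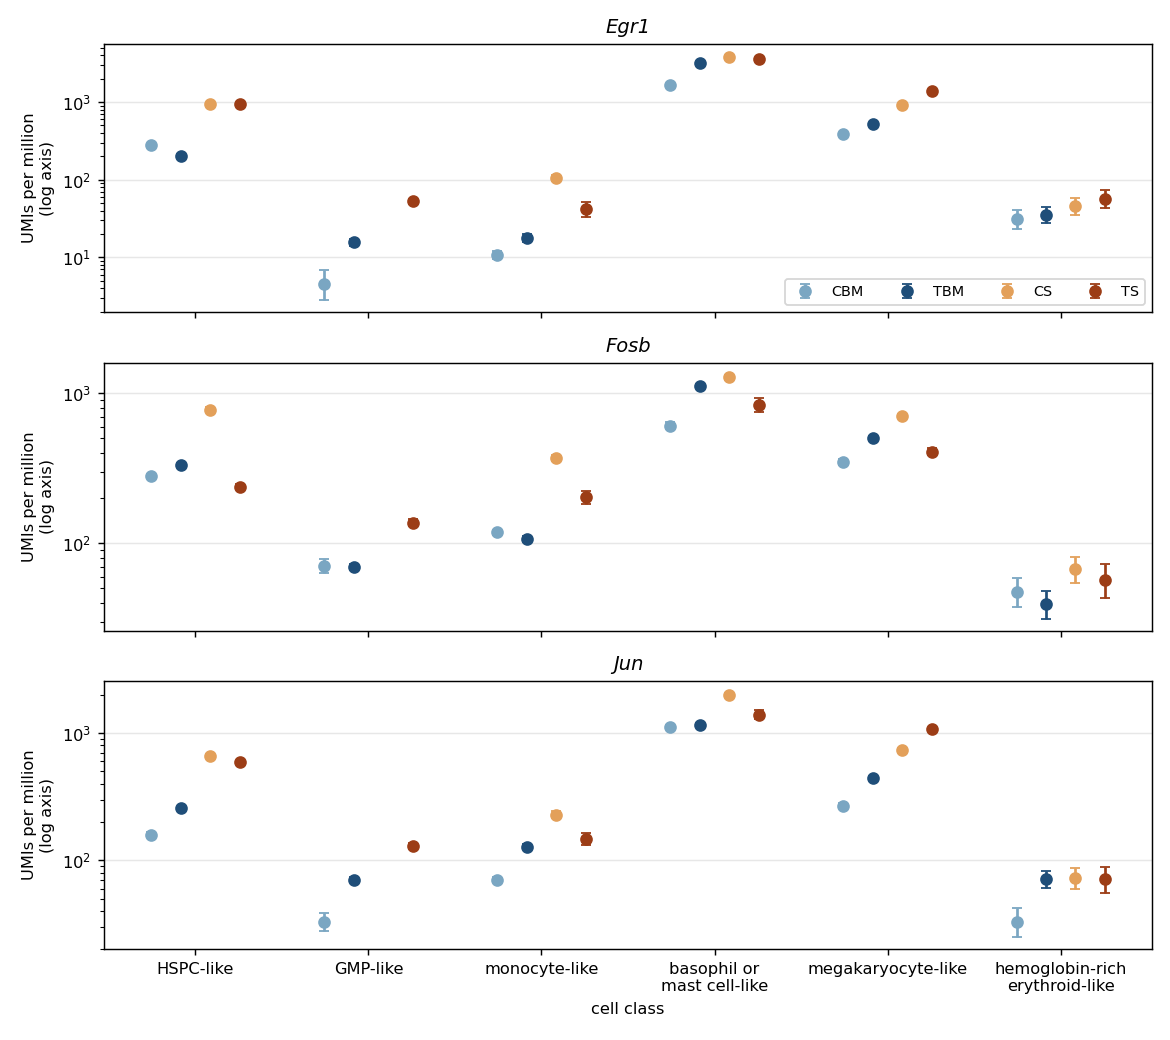
Levels of Egr1, Fosb and Jun in 6 classes and 4 libraries (vertical axis, CPM on a log scale; bars, exact 95% counting intervals; points with under 50 barcodes left out). The highest point of each gene is the basophil or mast cell-like one of CS, at 3821, 1283 and 1998 CPM, and the lowest is a hemoglobin-rich erythroid- or GMP-like one of marrow.

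The pair of clusters led by Scin and St8sia6, which carry no class name, were also compared, with 326 and 203 barcodes in CBM and TBM and 431 and 502 in CS and TS. In CS over CBM all 10 intervals lay above 0 (17.1% of all genes) with a median of 1.02 (0.95 to 1.10), and 4 of 9 members at the level were at least 2-fold higher (0.812% of 6038 genes). In TS over TBM the median was 0.41 (0.24 to 0.58) and 6 intervals lay above 0 (12.9% of all genes), with Egr1 at 502 CPM in TBM and 1117 in TS, the member at the level that was at least 2-fold higher (0.728% of 6041 genes), and Fosb lower in TS, at 190 CPM against 341 in TBM (log2 -0.85, -0.98 to -0.71). The CS cells were mostly of the first of these clusters (393 of 431) and the TS cells of the second (476 of 502).

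Across the 31 combinations of a named class and a library with at least 50 barcodes, the summed level ran from 543 CPM (hemoglobin-rich erythroid-like, TBM) to 19845 (basophil or mast cell-like, CS). The 4 basophil or mast cell-like values were the highest 4, at 12240 to 19845 CPM, followed by HSPC-like CS (6892), megakaryocyte-like TS (6196), HSPC-like TS (5631) and megakaryocyte-like CS (5611). Of the 30 neighbouring pairs in this order 8 had overlapping counting intervals, HSPC-like TS and megakaryocyte-like CS among them. Of the 10 genes 7 (Jun, Junb, Fosb, Egr1, Ier2 and Ier3, and Fosl2 in CBM) were highest in basophil or mast cell-like cells, the first 6 of them in CS. Jund was highest in B-lineage-like cells of TBM (1006 CPM), Fos in HSPC-like cells of CS and Atf3 in dendritic cell-like cells of CS (60.0 CPM, 500 UMIs).

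As a description over those 31 points, which share libraries and cell classes, the log2 levels of Junb and Ier2 went together most closely (Pearson r = 0.96), then Fos and Fosl2 (r = 0.92) and Jun and Egr1 (r = 0.91), and the highest r of Atf3 was 0.50, with Fos. Against the sum of the 10, r was 0.97 for Junb, 0.97 for Ier2, 0.93 for Fosb and 0.93 for Jun, but 0.19 for Atf3. These genes are themselves among the 10 that were summed, and Atf3 is the rarest of those named. Among the other genes most like the sum were Kdm6bos (r = 0.94, at most 18.9 CPM), Smim3 (0.94), Aff4 (0.94) and Zfp36 (0.93). Zfp36 encodes an RNA-binding protein that speeds the decay of such transcripts.

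Cell by cell the HSPC-like cells of the spleen libraries lay higher over most of the distribution. After each barcode was thinned to 2000 UMIs, HSPC-like cells held a median of 7 and 8 UMIs of the 10 genes in CBM and TBM and 14 and 12 in CS and TS, with 10th percentiles of 3 (CBM), 2 (TBM), 7 (CS) and 4 (TS), and a median of 4 of the genes was seen per cell in each marrow library and 6 in each spleen library. In CS 36.7% of HSPC-like cells (29.2% to 44.7%) exceeded the 90th percentile of CBM, which 8.65% of the CBM cells themselves did. In TS 22.4% (19.4% to 25.6%) exceeded that of TBM, against 8.42% in TBM. Monocyte-like cells gave 42.6% in CS but 7.14% (1.98% to 17.3%) in TS, against 6.69% in CBM and 8.58% in TBM. The 10th percentile of TS was under that of TBM in basophil or mast cell-like (10 against 16) and megakaryocyte-like cells (1 against 3). It was above in GMP-like cells (1 against 0) and equal in monocyte- and hemoglobin-rich erythroid-like cells. Thinning left out 106 barcodes in all. The share of HSPC-like cells with a Fosb UMI after thinning was 38.4% and 41.4% in CBM and TBM and 63.9% and 29.8% in CS and TS, and without thinning 77.6%, 79.8%, 97.5% and 75.3%. For Egr1 it was 34.0%, 33.1%, 73.4% and 72.0%, and without thinning 72.7%, 72.5%, 92.4% and 92.9%. Hemoglobin-rich erythroid-like cells are of like depth in total UMIs (medians of 12155.5 to 18397.5, against 13991 to 19998.5 in HSPC-like cells). Their thinned shares were 6.42% to 10.6% for Fosb and 2.67% to 11.3% for Egr1. The 10 housekeeping genes described below summed to 7340 to 9932 CPM in them, against 14379 to 14946 CPM in HSPC-like cells. The part of this in the shares was not tested.

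**Figure D5:**
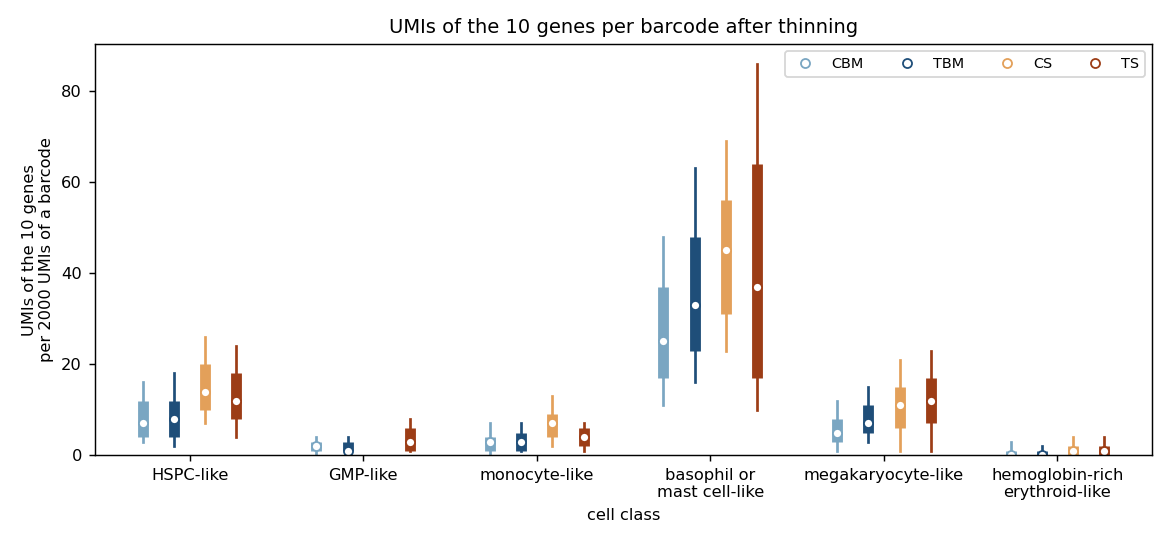
UMIs of the 10 genes per barcode after thinning each to 2000 UMIs, by class and library (vertical axis, count from 0; circle, median; thick bar, 25th to 75th percentile; thin line, 10th to 90th percentile). In HSPC-like cells the medians are 7, 8, 14 and 12 in CBM, TBM, CS and TS; the spread within each library is wide and the libraries overlap.

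Free RNA was read from barcodes with at most 100 UMIs. It held 2010 and 2348 CPM of the 10 genes in CBM and TBM and 2915 and 2100 in CS and TS. That was below the HSPC-like class of each library, but above the sums of HSPC-like cluster 8 in both marrows. It was also above the GMP- and monocyte-like cells of both marrows (843 to 1528 CPM) and all hemoglobin-rich erythroid-like cells. GMP-like cells of TS (1919 CPM) lay below it too. Egr1 in free RNA stood at 103 and 186 CPM in the marrows and 170 and 186 in the spleens, so the 205 CPM of HSPC-like cells of TBM lay close to it. The Egr1 levels of monocyte-like cells (10.8 to 106 CPM) and of GMP-like cells of TBM and TS (15.6 and 52.6 CPM) lay below it in each library, so the large Egr1 ratios of those classes rest on levels under that of free RNA. The same was true, in both libraries compared, of 5 of the 10 genes in monocyte-like cells for CS over CBM (Junb, Jund, Egr1, Ier2 and Ier3) and 6 for TS over TBM, and of 8 in GMP-like cells (all but Fos and Ier3). In hemoglobin-rich erythroid-like cells it was true of 9 and 10 genes. In megakaryocyte-like cells it was true of Atf3, Ier2 and Ier3 for CS over CBM and of Atf3 for TS over TBM. In basophil or mast cell-like cells it was true of Atf3. In HSPC-like cells it was true of none in both libraries compared. Single libraries there did fall under free RNA: Ier2 in CS (509 against 515 CPM) and TBM (289 against 318), Ier3 in TBM (335 against 368), and Atf3 in CBM and TS. Taking 10% of the UMIs away by this profile gave HSPC-like medians of 0.94 and 0.56, close to those above, while the tumor-bearing count of pairs at least 2-fold higher moved as given above. Over the same HSPC-like cells 10 housekeeping genes had median log2 ratios of 0.12 (CS over CBM) and, for 9 at the level, 0.11 (TS over TBM). The 8 heat shock genes at the level had 0.35 in both, and each had an interval above 0 in both (19.5% and 29.9% of all genes). Of the housekeeping intervals some lay above 0 and some below. None of either list was 2-fold higher (0.748% and 0.377% of all genes were). Of the heat shock genes Dnajb1 (0.76 and 0.58) and Hsph1 (0.58 and 0.63) were highest and Hsp90aa1 (0.06 and 0.21) and Hsp90ab1 (0.09 and 0.16) lowest. Of the housekeeping genes Gapdh (0.46) and Tbp (0.29) were highest and Ywhaz (-0.10) and Actb (-0.08) lowest in control mice, and Ppia (0.22) and Pgk1 (0.14) were highest and Ywhaz (-0.12) and Eef1a1 (-0.06) lowest in tumor-bearing mice. In the other named classes the heat shock median ran from 0.01 to 0.78, both in hemoglobin-rich erythroid-like cells (CS over CBM, then TS over TBM). At 0.78, 3 genes were at least 2-fold higher (3.61% of all genes). It was 0.64 in basophil or mast cell-like cells for CS over CBM, with 2 such genes (1.3% of all genes), and 0.59 in monocyte-like cells for TS over TBM. The part of heat shock genes or of free RNA in the AP-1 values was not tested, nor was that of depth, with a median of 19998.5 UMIs per HSPC-like cell in CS against 13991 to 14697 in the other 3 libraries.

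Around these 10 genes, the medians of the rest of the AP-1 machinery lay near 0 in HSPC-like cells. Of 14 other AP-1 and related bZIP genes, 8 were at the level in CS over CBM and 7 in TS over TBM, with medians of -0.01 and -0.04 and none 2-fold off in either direction. Of all genes only 0.748% and 0.377% were at least 2-fold higher, so a count of none is near the background, here and in the next list. Mafg (log2 -0.32) and Atf7 (-0.31) were lowest and Mafk (0.24) and Nfe2l2 (0.22) highest in control mice. In tumor-bearing mice Mafg (-0.30) and Atf7 (-0.19) were lowest again, and Batf (0.29) and Nfe2l2 (0.27) highest. Of 22 upstream kinases and SRF or CREB factors, 17 and 16 were at the level, with medians of -0.08 and -0.04 and none 2-fold off. Their range ran from Map2k7 (-0.25) and Rps6ka1 (-0.24) to Mapk9 (0.19) and Map2k3 (0.17) in control mice, and from Mapk8 (-0.27) and Mapk14 (-0.25) to Map2k2 (0.28) and Map2k3 (0.24) in tumor-bearing mice. The genes of both lists named here for tumor-bearing mice all had counting intervals off 0, some above and some below.

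Of 13 other immediate-early factors, 11 were at the level in CS over CBM, with a median of 0.66 and 3 at least 2-fold higher. Over all genes the median was 0.04 and 0.748% were at least 2-fold higher. Egr3, a relative of Egr1, went from 10.5 CPM in CBM to 99.9 in CS (log2 3.25, 2.96 to 3.54) and Klf2 from 25.2 to 61.3 CPM (1.28); Myc (0.07, -0.06 to 0.19) and Klf4 (0.23, -0.06 to 0.51) were lowest, with intervals that spanned 0. In TS over TBM 8 were at the level, with a median of 0.59: Egr3 was highest (33.3 CPM in TS, log2 1.60, 1.35 to 1.85), then Nr4a1 (0.94), while Klf6 was 2-fold lower (80.1 to 38.4 CPM, log2 -1.06, -1.21 to -0.91) and Myc lower by less (-0.26). Feedback regulators, which end these responses, had medians of 0.35 (12 genes) and 0.79 (11 genes), with 3 at least 2-fold higher in each. Of all genes at the level 0.748% and 0.377% were. Gadd45b (1.83) and Btg2 (1.08) led in control mice and Gadd45b (2.00) and Btg2 (1.85) in tumor-bearing mice, and at the low end stood Zfp36l2 (-0.16) and Spred1 (-0.06), then Spred1 (-0.28) and Zfp36l2 (-0.20).

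The list of textbook AP-1 target genes showed smaller differences. Of 10 such genes 4 were at the level in CS over CBM and 3 in TS over TBM, with medians of 0.19 and 0.15 and none 2-fold higher or lower. With 0.748% and 0.377% of all genes at least 2-fold higher, a count of none is near the background for so few genes. Plaur, the urokinase receptor, was highest in both, at log2 0.49 (0.24 to 0.73) and 0.92 (0.77 to 1.07), followed by Tgfb1 (0.44 and 0.15). Ccnd1 (-0.29) and Cd44 (-0.06) were lowest in control mice, and Cd44 (-0.20) in tumor-bearing mice.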

How the data were processed

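The authors deposited unfiltered count matrices, 1 per sample, of raw UMI counts per gene and barcode, made per the submitters' notes with Cell Ranger 4.0 on mm10; the study's later steps (ambient RNA removal, cell filtering, merging, transformation) are not in these counts. Barcodes with at least 1000 genes and at most 10% mt- UMIs were kept. Pearson residuals (theta 100) of 3000 variable genes, without 79 listed genes, gave 50 components, 20 neighbors and Leiden clusters at resolution 1.2. A cluster was named when at least 4 markers of a class, more than of any other, were among its top 50 genes by fold and at least 1, and no fewer than of any other class, in its top 10, which also settled a tie (1 monocyte-like cluster). This rule, and the grouping of the Scin and St8sia6 clusters, were settled after the clusters were seen. No doublet caller was run; an alternative leaves out the 5% of barcodes with most UMIs. Counts were summed per class and library and divided by the total. Intervals are exact (Poisson, conditional binomial, Clopper-Pearson) at 95% and cover counting error only. A ratio needs over 3 UMIs in 1 library, and a count of 0 is set to 3. Depth was 59122731 to 139854825 UMIs per library. The ratio and its interval were run on simulated pooled counts with Poisson error only, which cannot show how the interval covers the spread between cells. Genes named are the 10, the 2 highest and 2 lowest of each other list per tissue contrast in HSPC-like cells, and the 5 most like the sum, of which 1 is not reported here. The 10 genes, the lists and the markers were chosen with earlier results of these data known. Alternatives changed the barcode limits, free RNA, scaling, weighting, depth and classes. Tools were Python 3.11.15, numpy 2.4.6, scipy 1.17.1, pandas 2.3.3, igraph 0.11.9 and leidenalg 0.10.2.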

Additional observations from a re-analysis of the deposited data

Results flagged for a closer look

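A tissue ratio of opposite sign in control and in tumor-bearing mice was found in 5 pairs of a gene and a class, each with a counting interval off 0, beside 2.03% of 26716 pairs of another gene at 20 CPM or more and the same 5 classes; the difference between the ratios was not tested, since each group is 1 library. Fosb was higher in CS than in CBM and lower in TS than in TBM in HSPC-like cells (log2 1.48 and -0.49), in basophil or mast cell-like cells (1.08 and -0.43) and in megakaryocyte-like cells (1.02 and -0.30). In HSPC-like cells TS over TBM was 0.90 (0.77 to 1.03) within cluster 8. Fos did so in megakaryocyte-like cells (0.66 and -0.27). Ier3 did so in basophil or mast cell-like cells (0.45 and -0.13). Within basophil or mast cell-like cluster 23, the one with at least 25 cells of both TS (36) and TBM (175), TS over TBM was 0.09 (-0.14 to 0.31) for Fosb and 0.41 (0.30 to 0.51) for Ier3, so neither lower level in TS held there.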

How the results depend on the processing

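No paired analysis was possible because each group is 1 library and the labels give no replicate numbers that pair samples. In control mice the HSPC-like median of CS over CBM lay between 0.86 and 0.98 under 13 alternatives; cluster 8 alone (37 against 16 barcodes) gave 1.92 and cluster 14 alone 1.201. Among the alternatives, a limit of at least 10 UMIs per member left out no member in HSPC-like cells, so it could not move these HSPC-like medians. TS over TBM (0.53) stayed above 0 throughout and moved to 0.44 with classes by marker UMIs, 0.46 with the mean of per-barcode CPM, 0.46 at resolution 0.6, 0.44 with the left-out genes kept in the clustering, 0.44 in cluster 0 and 1.49 in cluster 8. TS over CS (-0.07) turned to 0.27 with classes by marker UMIs, 0.0742 with per-barcode CPM, 0.0936 after thinning, 0.0291 with the genes kept, 0.15 in cluster 8 and 0.0166 in cluster 14. TBM over CBM (0.02) turned to -0.0074 with free RNA subtracted and -0.0122 with hemoglobin, mitochondrial and ribosomal protein genes left out of the total, and moved to 0.37 with classes by marker UMIs, 0.12 with per-barcode CPM, 0.083 after thinning, 0.17 at resolution 0.6, 0.20 with the genes kept, 0.28 in cluster 0, 0.29 in cluster 8 and 0.40 in cluster 14. So neither of the comparisons within a tissue has a stable sign. Pairs of gene and class at least 2-fold higher were 21 of 50 in control mice and 20 to 30 under 10 alternatives. Among these were 30 of 70 at resolution 0.6 and 28 of 69 with looser barcode limits, where more pairs had enough barcodes. With the genes kept they were 33 of 60, where 6 classes had enough barcodes. In tumor-bearing mice they were 11 of 58 and 10 to 13 under 10 alternatives, among them 11 of 30 with classes by marker UMIs and 13 of 40 with stricter barcode limits, where fewer pairs had enough barcodes, and 19 of 57 with free RNA subtracted. The single-cluster settings were added after the data were seen. The causes were not tested. Fewer than 50 barcodes kept 7 of the 12 named classes out of the control comparison of tissues, and Atf3 had no ratio in 2 of the 6 classes of the tumor-bearing comparison.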

Other observations

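Of the unnamed clusters, 1 had 716 of its 732 barcodes in TS and another 524 of its 542 in CS. In TS, 716 barcodes of the first held 2073 CPM of the 10 genes, with Junb at 606 CPM, Jun at 391 and Egr1 at 122. In CS, 524 barcodes of the second held 2339 CPM, with Junb at 668 CPM, Jun at 361 and Egr1 at 69.1. A shallow unnamed cluster with 146 barcodes in TBM and 76 in CS had Fosb as its member with the most UMIs, at 631 CPM in TBM and 1003 in CS, and a sum of 3091 and 5100 CPM.

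Across HSPC-like cells of 1 library, thinned to 2000 UMIs, the 10 genes were only weakly tied to each other. The median Spearman rho over the 45 pairs was 0.06 and 0.10 in CBM and TBM and 0.14 and 0.15 in CS and TS, with 38 to 42 pairs above 0; the highest pair was Junb with Fos in CBM (0.25), Fos with Fosb in TBM (0.33), Fos with Egr1 in CS (0.34) and Junb with Egr1 in TS (0.45). In counts this sparse, rho also follows how often each gene is seen, which differs between the libraries.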
